A study of Mus musculus with 15 samples.

Results

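The 10 genes described here encode the cytosolic amino acid sensors and the GATOR complexes that pass their signal to mTORC1, measured in the mouse trigeminal ganglion (TG) after corneal injury. They are the arginine sensor Castor1, the sestrins Sesn1, Sesn2 and Sesn3, the GATOR1 subunits Depdc5, Nprl2 and Nprl3, and the GATOR2 subunits Mios, Wdr24 and Seh1l. They were taken by gene identifier from the 55573 genes of the count table, and all 10 passed the filter on low counts that left 16567 genes. The set was chosen by symbol, with the difference of Castor1 between RvD6si and vehicle already known. Values and counts of that comparison are therefore given for these genes as a description, and no test is read from them.

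The study treated male CD1 mice, 10 weeks old by the study's methods, whose right cornea had been marked with a 2 mm trephine and stripped of epithelium and anterior stroma. Drops of vehicle, of the lipid mediator resolvin D6 (RvD6, the standard) or of its stereoisomer RvD6si (the isomer) were put on the injured eye 3 times a day for 12 days, and the TG of the same side was then taken. Each group held 5 samples, numbered 1 to 5 for vehicle, 6 to 10 for RvD6 and 11 to 15 for RvD6si, and every group carried the injury, so no uninjured ganglion enters a comparison. The dose of the lipids for these mice is not given in the sources used here.

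The growth-promoting kinase complex mTORC1 is active on the lysosome, where the Rag GTPases hold it when amino acids are plentiful. GATOR1 switches the Rags off, and GATOR2 opposes GATOR1. Castor1 binds GATOR2 when arginine is scarce. SESN2, the best known leucine sensor among the sestrins, does so when leucine is scarce. Each lets go when its amino acid binds it. In sensory neurons mTORC1 is known for driving protein synthesis during axon growth, and loss of GATOR1 subunits is known as a cause of focal epilepsy.

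RNA was reverse transcribed from its poly(A) tail by the Smart-seq2 protocol, and 4125962 to 9903396 reads per sample were counted on genes. Levels below are CPM, that is counts scaled to library size after TMM normalization, unless a level per length is named. The samples differed in the tissues they held. The summed CPM of 10 skeletal muscle markers was 32.0 to 179 in vehicle, 128 to 3385 in RvD6 and 23.1 to 60.6 in RvD6si samples. The 7 granulocyte precursor markers summed to 109 to 576, 683 to 2202 and 53.5 to 1920, and RvD6si replicate 15 alone held the last value, the other RvD6si samples being far lower. The 4 erythroid markers summed to 2035 to 4371 CPM in vehicle, 5020 to 9118 in RvD6, wholly above vehicle, and 820 to 10308 in RvD6si, where replicate 15 again held the highest value. The 5 fibroblast markers summed to 1316 to 1601, 1325 to 2087 and 1142 to 1560 CPM. The 10 neuron markers summed to 12463 to 14398 in vehicle, 6813 to 13738 in RvD6 and 11706 to 15335 in RvD6si samples, with none at 0 in any library. For RvD6 against vehicle 10 of 10 neuron markers had negative log2 fold changes, with a median of -0.39, of which edgeR called 0 and 5 had an unadjusted p below 0.05. For RvD6si against vehicle 6 of 10 were negative, with a median of -0.09. All samples are bulk tissue, in which fewer cells of a type and less RNA per cell cannot be told apart.

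The start-site windows of Castor1 and of Nprl2 and Sesn2, the other genes of the set whose levels followed that of Castor1 most closely over the 15 samples, are shown to place the genes. They come from RefSeq on GRCm38.p6, run 5′ to 3′ from 250 bases before the annotated start to 50 bases after it, and carry in capitals every match on either strand to 6 short motifs. These are GGGCGG for the GC box, CCAAT for the CCAAT box, CACGTG for the E-box, TGATGNAAT for the element read by ATF4 with C/EBP, GTAAACA for FoxO and TATAAA for the TATA box. The Castor1 window lies at chr11:4217975-4218274 on the plus strand, that of Nprl2 at chr9:107541959-107542258 on the plus strand and that of Sesn2 at chr4:132510407-132510706 on the minus strand.
Castor1: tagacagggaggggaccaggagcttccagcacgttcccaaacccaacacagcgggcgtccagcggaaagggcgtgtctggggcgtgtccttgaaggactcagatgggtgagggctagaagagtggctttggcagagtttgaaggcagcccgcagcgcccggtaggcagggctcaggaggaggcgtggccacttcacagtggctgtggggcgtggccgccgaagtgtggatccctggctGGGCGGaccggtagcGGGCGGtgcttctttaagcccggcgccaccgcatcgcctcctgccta
Nprl2: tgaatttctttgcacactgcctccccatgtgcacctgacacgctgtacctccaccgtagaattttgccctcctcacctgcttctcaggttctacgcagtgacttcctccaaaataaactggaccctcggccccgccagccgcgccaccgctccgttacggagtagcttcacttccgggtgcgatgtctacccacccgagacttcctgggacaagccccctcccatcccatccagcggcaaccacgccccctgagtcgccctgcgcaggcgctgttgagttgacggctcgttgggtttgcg
Sesn2: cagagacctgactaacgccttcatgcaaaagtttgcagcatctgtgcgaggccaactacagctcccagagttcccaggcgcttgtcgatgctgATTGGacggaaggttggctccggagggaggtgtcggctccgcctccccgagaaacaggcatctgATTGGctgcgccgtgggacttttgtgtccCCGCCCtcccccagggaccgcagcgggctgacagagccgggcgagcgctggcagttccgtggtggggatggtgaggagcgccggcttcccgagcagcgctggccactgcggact

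The capitals in the Castor1 window are 2 GC boxes, and no other letters searched were found there. The Nprl2 window held none of them, and the Sesn2 window held 1 GC box and 2 CCAAT boxes, all on the opposite strand. RefSeq windows were at hand for 8 of the 10 genes, 9 windows in all, since Sesn1 has 2. GC boxes occurred in 8 of these 9 windows and in 35.7% of the 32851 windows of the genome-wide table, and CCAAT boxes in 4 of 9 and in 37.4%. The GC content was 52.0% in the Nprl3 window and 60.7 to 71.0% in the others, against a median of 52.7% over all windows. Matches were not compared at equal GC content, so no enrichment is read from these counts. The FoxO letters occurred in 1 of 9, the upstream Sesn1 window, and in 3.65% of all windows. The TATA letters occurred in 1 of 9, that of Nprl3, and in 13.6%. The E-box and the ATF4 letters were found in 0 of 9 windows, against 7.15% and 0.965% of all windows. The longer E-box TCACGTGA, which lies within the E-box count, was also found in 0 of 9 and in 0.974% of all windows. A match is a description of the letters and not of a factor bound there.

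Scaled by exon length, the 10 genes spanned a wide range of levels in the TG. The length covers the exons of all annotated transcripts, 19 for Depdc5, 16 for Nprl3, 7 for Sesn3 and 1 each for Castor1 and Sesn2. Levels per length may therefore be understated for genes with many transcripts. The mean over the 15 samples, in CPM per kb of exon ± SD, was 25.6 ± 5.09 for Sesn1, 19.8 ± 5.52 for Nprl2, 11.6 ± 2.14 for Wdr24, 7.09 ± 2.96 for Seh1l and 6.68 ± 3.11 for Castor1. It was 3.94 ± 1.38 for Nprl3, 3.87 ± 1.29 for Sesn3, 3.53 ± 0.682 for Depdc5, 2.60 ± 0.800 for Mios and 0.780 ± 0.461 for Sesn2. The ranges of every pair of neighbours in this order overlapped. Within single samples the order was firmer at some steps than at others. Nprl2 stood above Wdr24 and Mios above Sesn2 in 15 of 15 samples, and Sesn1 above Nprl2 and Depdc5 above Mios in 14. Wdr24 stood above Seh1l in 12 of 15 samples, Castor1 above Nprl3 in 11, Sesn3 above Depdc5 in 10, Nprl3 above Sesn3 in 9 and Seh1l above Castor1 in 8. The steps from Sesn3 to Depdc5 and from Nprl3 to Sesn3 were thus close to even, while the step from Seh1l to Castor1 differed by group. In vehicle every sample had more Castor1 (7.22 to 12.3 CPM per kb) than Seh1l (4.23 to 6.00). In RvD6si every sample had more Seh1l (8.03 to 11.8) than Castor1 (2.97 to 6.10), and RvD6 was mixed. This follows in part from the Castor1 difference the gene was chosen for.

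Castor1 (ENSMUSG00000020424.3; GRCm38 chr11:4218225-4222409, plus strand, 9 exons with 1574 bases) had its highest mean level in vehicle and its lowest in RvD6si, with RvD6 between them. Its level in vehicle replicates 1 to 5 was 14.5, 14.2, 11.4, 19.4 and 19.3 CPM. In RvD6 replicates 6 to 10 it was 7.81, 10.7, 14.8, 6.86 and 6.96 CPM. In RvD6si replicates 11 to 15 it was 4.67, 5.39, 9.61, 5.92 and 6.34 CPM. Every RvD6si sample thus lay below every vehicle sample, while RvD6 overlapped both groups, with replicate 8 inside the vehicle range and the other 4 samples below it. These levels rest on 102 to 168 reads per vehicle sample, 40 to 87 per RvD6 sample and 28 to 75 per RvD6si sample.

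The mean Castor1 level was 15.7 ± 3.49 CPM in vehicle, 9.42 ± 3.38 CPM in RvD6 and 6.39 ± 1.90 CPM in RvD6si (SD, n = 5 each). The fitted log2 fold change of RvD6si against vehicle, the contrast the gene was selected on, was -1.30 (SE 0.29). RvD6 against vehicle gave -0.74 (SE 0.29), which did not pass the quasi-likelihood test of edgeR (adjusted p = 0.279), and this test shares the vehicle samples with the contrast used for the choice. RvD6si against RvD6, which shares the RvD6si samples with it, gave -0.55 with a 95% interval from -1.17 to 0.06 (edgeR, adjusted p = 0.612). Without RvD6 replicate 8 the log2 fold change of RvD6 against vehicle was -0.96 (edgeR, adjusted p = 0.149). With the muscle score as a covariate RvD6si against RvD6 was -0.15 (edgeR, adjusted p = 0.983). The muscle marker sums of these 2 groups did not overlap (128 to 3385 CPM in RvD6, 23.1 to 60.6 in RvD6si). The covariate and the group are thus largely confounded, and nothing is read from this value. For RvD6si against vehicle the value was -1.12 once the trend of each sample on gene length was removed and -1.21 with the muscle score as a covariate. It was -1.29 without replicate 15, the RvD6si library with by far the most granulocyte precursor reads of its group.

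The Castor1 level went with the neuron markers in some libraries and not in others. RvD6 replicate 8, with the most Castor1 of its group, had 13738 CPM of neuron markers, the highest RvD6 value, and 2174 CPM of muscle markers. RvD6 replicate 9, with the least Castor1 of its group, had 6813 CPM of neuron markers, the lowest RvD6 value, and 3385 CPM of muscle markers. RvD6si replicate 13, with the most Castor1 of its group, had 15335 CPM of neuron markers, the highest of the series. Vehicle replicate 4, with the most Castor1 of the series at 19.4 CPM, had 12501 CPM of neuron markers, near the lowest vehicle value of 12463. RvD6si replicate 15, at 6.34 CPM of Castor1, had 11706 CPM of neuron markers, the lowest of its group. The part of the neuron content in the Castor1 level was not tested.

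**Figure D1:**
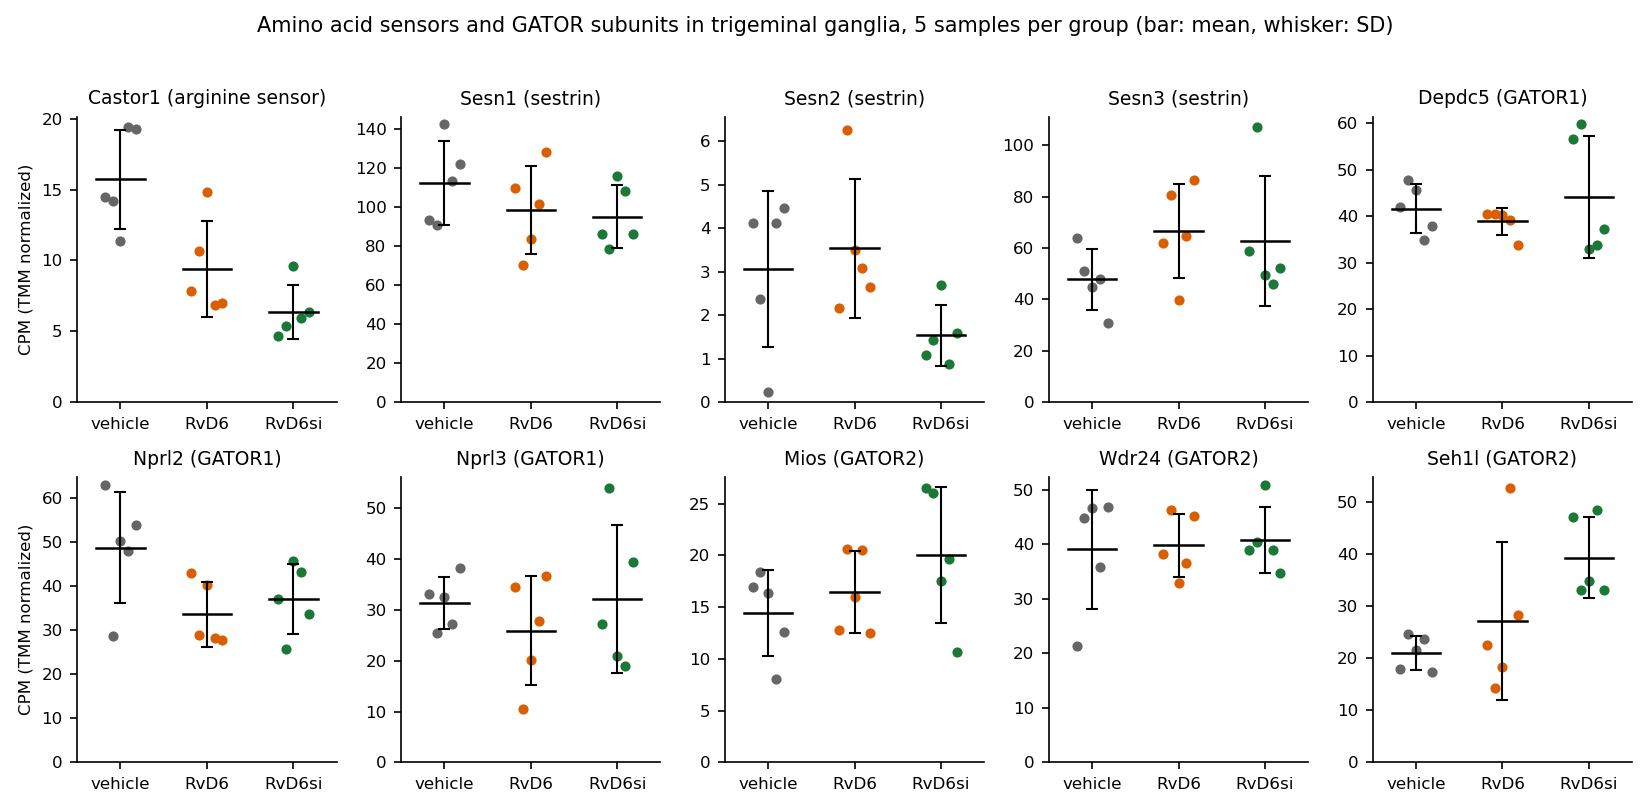
Levels of the 10 genes in each trigeminal ganglion, in CPM after TMM normalization, by group (grey vehicle, orange RvD6, green RvD6si; 1 point per sample, bar for the mean and whisker for the SD, n = 5). The 5 RvD6si samples lie below all vehicle samples for Castor1 and above them for Seh1l, and the groups overlap for the other 8 genes.

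Castor2, the paralogue that pairs with Castor1 in the same sensor, had log2 fold changes of the opposite sign. Per kb of exon, Castor2 was at 3.12, 2.40, 2.18, 3.58 and 2.00 CPM per kb in vehicle samples. It was at 3.10, 5.95, 2.32, 3.08 and 4.18 CPM per kb in RvD6 samples and at 3.52, 6.88, 2.30, 4.51 and 3.72 CPM per kb in RvD6si samples. Its log2 fold change was 0.66 (SE 0.29) for RvD6si against vehicle, which edgeR did not call (adjusted p = 0.271), and 0.49 (SE 0.29) for RvD6 against vehicle (edgeR, adjusted p = 0.481).

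The ratio of Castor1 to Castor2, both per kb, was 2.96, 3.75, 3.31, 3.44 and 6.11 in vehicle samples. It was 1.601, 1.14, 4.06, 1.41 and 1.06 in RvD6 samples and 0.843, 0.498, 2.65, 0.834 and 1.08 in RvD6si samples. Castor1 was thus the more abundant of the pair in all vehicle and RvD6 samples, and the less abundant in 3 of 5 RvD6si samples. The ratio of every RvD6si sample lay below that of every vehicle sample, which follows in part from the Castor1 difference the gene was chosen for. Without scaling to length the mean ratio was 0.815 in vehicle, 0.386 in RvD6 and 0.246 in RvD6si, so which of the pair is the higher depends on the scaling, whereas the order of the groups does not.

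**Figure D2:**
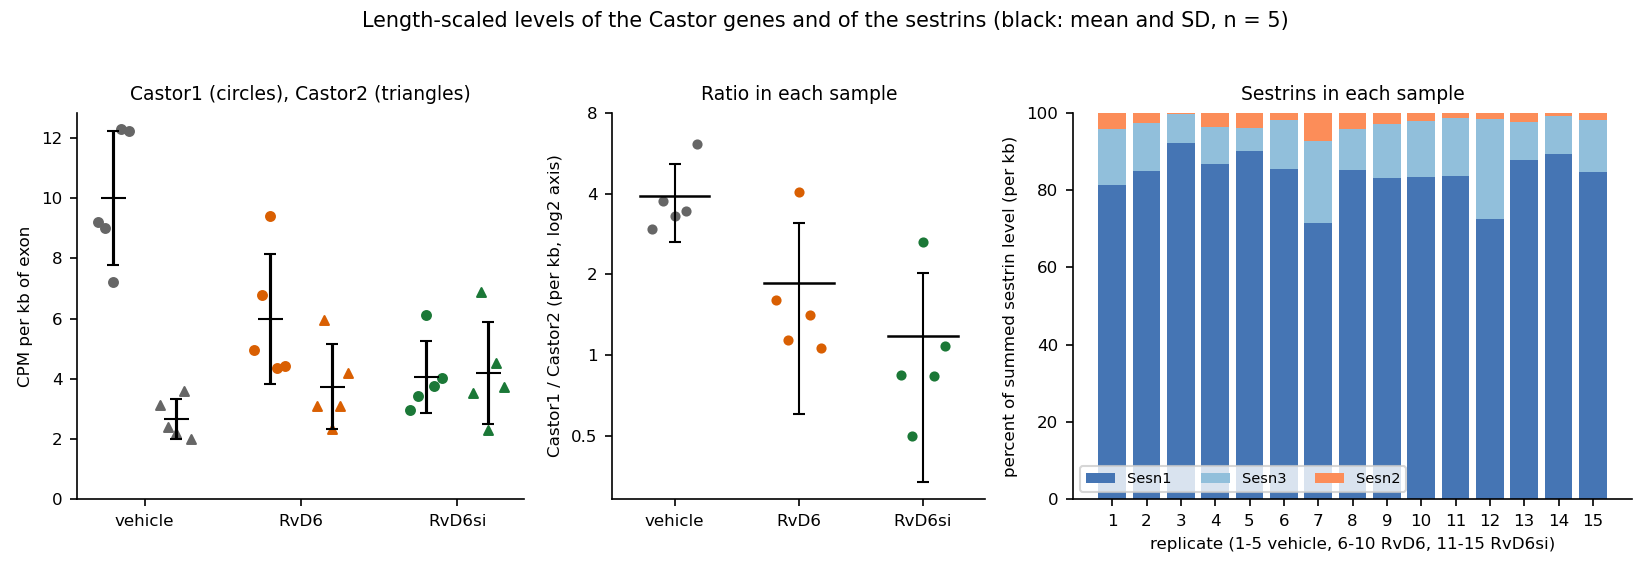
Left, CPM per kb of exon of Castor1 (circles) and Castor2 (triangles) in each sample with mean and SD (n = 5). Middle, their ratio in each sample on a log2 axis, with a mean of 3.91 in vehicle, 1.85 in RvD6 and 1.18 in RvD6si. Right, the share of each sestrin in the summed sestrin level per kb, sample by sample, with Sesn1 at 71.4 to 92.3%.

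The sestrins, stress-induced proteins of which SESN2 is the best known leucine sensor, were dominated by Sesn1. Its share of the summed sestrin level per kb was 87.1 ± 4.34% in vehicle, 81.7 ± 5.88% in RvD6 and 83.7 ± 6.58% in RvD6si (SD, n = 5 each). Sesn3 made up 10.0 ± 3.54%, 14.6 ± 4.05% and 14.8 ± 6.60%, and Sesn2 2.85 ± 1.61%, 3.64 ± 2.21% and 1.54 ± 0.573%. Without scaling to length the Sesn1 share fell to 68.5%, 58.5% and 60.2%, since the Sesn3 exons are longer.

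Sesn1 (ENSMUSG00000038332.13; chr10:41809935-41908424, plus strand, 3982 exonic bases), a target of p53 and of FoxO factors, was at 93.0, 90.7, 142, 113 and 122 CPM in vehicle samples. It was at 110, 70.4, 83.4, 101 and 128 CPM in RvD6 and at 86.0, 78.4, 116, 108 and 86.3 CPM in RvD6si samples. The groups overlapped, and the log2 fold change was -0.19 (SE 0.18) for RvD6 and -0.24 (SE 0.18) for RvD6si against vehicle.

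Sesn2 (ENSMUSG00000028893.8; chr4:132492032-132510501, minus strand, 3475 exonic bases), which is induced by p53 and by ATF4, was the least expressed gene of the set. It was at 4.13, 2.36, 0.223, 4.12 and 4.47 CPM in vehicle samples, where replicate 3 held 2 reads. It was at 2.17, 6.26, 3.51, 3.08 and 2.65 CPM in RvD6 and at 1.09, 1.43, 2.69, 0.867 and 1.59 CPM in RvD6si samples. Apart from vehicle replicate 3, 4 of 5 RvD6si samples lay below every vehicle sample, and RvD6si replicate 13 lay above vehicle replicate 2 as well. The log2 fold change was -0.99 (SE 0.61) for RvD6si against vehicle and 0.21 (SE 0.59) for RvD6 against vehicle. Between the stereoisomers it was -1.19, with a 95% interval from -2.48 to 0.09 (edgeR, adjusted p = 0.599). Only 6 to 21 reads were counted per RvD6si sample, and the biological coefficient of variation (the spread between samples beyond counting noise) was 61.8%, against a median of 33.7% over all genes tested.

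Sesn3 (ENSMUSG00000032009.8; chr9:14275067-14333101, plus strand, 15269 exonic bases), a FoxO target, was at 64.1, 51.2, 44.8, 48.0 and 30.8 CPM in vehicle samples. It was at 61.9, 80.7, 39.9, 64.6 and 86.5 CPM in RvD6 and at 59.1, 107, 49.6, 46.0 and 52.3 CPM in RvD6si samples. Its means were higher in both lipid groups than in vehicle, with a log2 fold change of 0.48 (SE 0.25; edgeR, adjusted p = 0.420) for RvD6 and 0.40 (SE 0.25) for RvD6si. The groups overlapped, and without RvD6si replicate 12, the sample at 107 CPM, the RvD6si value was 0.11.

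GATOR1 is the GTPase-activating complex that turns RagA and RagB off, with Nprl2 as its catalytic subunit, Nprl3 as the partner of Nprl2 and Depdc5 as the subunit that contacts the Rags. Nprl2 (ENSMUSG00000010057.8; chr9:107542226-107545706, plus strand, 2013 exonic bases) was at 62.8, 28.7, 50.3, 48.0 and 53.9 CPM in vehicle samples. It was at 43.0, 28.8, 40.1, 28.3 and 27.8 CPM in RvD6 and at 37.1, 25.6, 45.7, 43.2 and 33.8 CPM in RvD6si samples. Vehicle replicate 2 lay among the lipid samples, all of which were below the other 4 vehicle samples. The log2 fold change was -0.54 (SE 0.22; edgeR, adjusted p = 0.303) for RvD6 against vehicle and -0.39 (SE 0.22) for RvD6si against vehicle. Without vehicle replicate 2 the RvD6 value was -0.68 and still not called (edgeR, adjusted p = 0.225).

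Depdc5 (ENSMUSG00000037426.18; chr5:32863701-32994236, plus strand, 11774 exonic bases) showed little spread in RvD6, with an SD of 2.94 CPM. It was at 42.1, 47.8, 45.6, 34.8 and 38.0 CPM in vehicle, at 40.6, 40.5, 40.3, 39.2 and 33.7 CPM in RvD6, and at 56.6, 59.9, 32.9, 33.8 and 37.2 CPM in RvD6si samples. RvD6si replicates 11 and 12 stood above all other samples of the series and the other 3 below at least 4 of the 5 vehicle samples. The log2 fold changes against vehicle were -0.10 (SE 0.19) for RvD6 and 0.08 (SE 0.19) for RvD6si.

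Nprl3 (ENSMUSG00000020289.15; chr11:32225628-32267707, minus strand, 7572 exonic bases) shares 17.7% of its exonic bases with Mpg, a DNA repair gene on the opposite strand. The reads carry no strand, so its counts are uncertain there. It ranged from 25.5 to 38.3 CPM in vehicle, from 10.5 to 36.8 CPM in RvD6 and from 19.1 to 54.0 CPM in RvD6si samples, and the spread was wider in the lipid groups (SD 10.8 and 14.6 CPM) than in vehicle (SD 5.12 CPM). The log2 fold changes against vehicle were -0.27 (SE 0.32) for RvD6 and 0.04 (SE 0.31) for RvD6si. The RvD6si value turned to -0.24 without replicate 12 and to -0.13 with the length trend removed.

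GATOR2 was represented by Mios and Wdr24, subunits with WD40 repeats, and by Seh1l, which is also a subunit of the nuclear pore. Seh1l (ENSMUSG00000079614.4; GRCm38 chromosome 18, bases 67774876 to 67795487, plus strand, 4121 exonic bases) was the gene of the set with the largest positive difference. It was at 17.9, 24.7, 21.6, 23.6 and 17.4 CPM in vehicle, at 22.6, 14.2, 18.3, 52.8 and 28.3 CPM in RvD6 and at 47.2, 33.1, 34.96, 48.6 and 33.1 CPM in RvD6si samples. All RvD6si samples lay above all vehicle samples, and RvD6 replicate 9, at 52.8 CPM, was the highest of the series. That library also held the most muscle marker reads, at 3385 CPM.

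The log2 fold change of Seh1l was 0.90 (SE 0.28) for RvD6si against vehicle. It was 0.37 (SE 0.28; edgeR, adjusted p = 0.601) for RvD6 against vehicle, and this was -0.02 without RvD6 replicate 9 and -0.38 with the muscle score as a covariate. For RvD6si against RvD6 it was 0.54, with a 95% interval from -0.05 to 1.12 (edgeR, adjusted p = 0.611), 0.92 without RvD6 replicate 9 (edgeR, adjusted p = 0.134) and 1.44 with the muscle covariate (edgeR, adjusted p = 0.654). The muscle marker sums of RvD6 lay above all of RvD6si and mostly above vehicle. The muscle covariate is thus largely confounded with the RvD6 group, and nothing is read from its values. An antisense gene, 4930549G23Rik, covers 3.06% of the Seh1l exons.

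Mios (ENSMUSG00000042447.13; chr6:8209222-8236274, plus strand, 6552 exonic bases) was at 16.9, 18.4, 16.4, 8.11 and 12.6 CPM in vehicle samples. It was at 12.8, 20.6, 15.98, 20.6 and 12.5 CPM in RvD6 and at 26.5, 26.1, 17.5, 19.7 and 10.6 CPM in RvD6si samples. RvD6si replicates 11, 12 and 14 exceeded all vehicle samples and replicate 15 fell below 4 of them. Its log2 fold change against vehicle was 0.19 (SE 0.28) for RvD6 and 0.47 (SE 0.28) for RvD6si.

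Wdr24 (ENSMUSG00000025737.5; chr17:25823627-25828730, plus strand, 3432 exonic bases) ranged from 21.3 to 46.8 CPM in vehicle, from 32.9 to 46.4 CPM in RvD6 and from 34.7 to 50.8 CPM in RvD6si samples. Its differences between groups were small, at log2 fold changes of 0.03 (SE 0.20) for RvD6 and 0.06 (SE 0.20) for RvD6si against vehicle.

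Over the whole set, RvD6si against vehicle gave positive log2 fold changes for 6 genes and negative ones for 4, with a median of 0.05 against 0.02 over all genes tested. The 3 GATOR2 subunits of the set were on the positive side and 3 of its 4 sensors on the negative side. Outside the set, the GATOR2 subunits Sec13 and Wdr59 were at -0.23 and 0.13, and the sensor Castor2 was at 0.66. By edgeR 1 of the 10 genes, Castor1, had an adjusted p below the threshold of 0.05, as did 0.670% of all genes. By DESeq2 Castor1 and Seh1l did, as did 8.13% of the genes for which DESeq2 gave an adjusted p. Castor1 was the only gene of the set with all RvD6si samples below all vehicle samples, as were 2.46% of all genes, and Seh1l the only one with all above, as were 2.45%. Nothing is read from these counts, since this contrast was used to choose the set.

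When 1 of the 15 samples was removed at a time, the log2 fold change of Castor1 for RvD6si against vehicle lay between -1.50 and -1.20. Under 8 other settings of tool, normalization, filter or covariate it lay between -1.29 and -1.12. These fits use the samples the gene was chosen on, so the values are a description.

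For RvD6 against vehicle, 0 of the 10 genes were called by edgeR or by DESeq2, against 0.00% and 1.92% of all genes. At an unadjusted p below 0.05 edgeR counted Castor1 and Nprl2, both lower, among 13.6% of all genes. The median log2 fold change of the set was -0.04. All 3 GATOR1 subunits had negative values, and the 3 GATOR2 subunits of the set had positive ones. Of these 6 values that of Nprl2 alone had a 95% interval that excluded 0. Sec13 and Wdr59, GATOR2 subunits outside the set, had negative values of -0.31 and -0.09 in this comparison.

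RvD6si is a stereoisomer of RvD6, and the 10 genes were compared between them at the same schedule of drops. None was called by edgeR, which called 0.235% of all genes, or by DESeq2, which called 0.936%, and 0 of the 10 had an unadjusted p below 0.05, against 8.82% of all genes. All 4 sensors of the set had negative and all 6 of its GATOR subunits positive log2 fold changes, some of them close to 0. With 1 sample left out, Sesn1 (-0.15 to 0.058), Sesn3 (-0.37 to 0.025) and Wdr24 (-0.060 to 0.10) lay on both sides of 0. The split by sign is therefore not firm. The 95% intervals were from -0.43 to 0.32 for Sesn1, from -0.62 to 0.45 for Sesn3, from -0.21 to 0.58 for Depdc5 and from -0.32 to 0.60 for Nprl2. They were from -0.36 to 0.97 for Nprl3, from -0.30 to 0.88 for Mios and from -0.39 to 0.46 for Wdr24. The intervals of Castor1, Sesn2 and Seh1l, given above, allow changes of more than 1 on the log2 scale. The intervals of the other 7 genes lie within 1 on either side of 0. That no gene was called does not show that the lipids act alike.

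**Figure D3:**
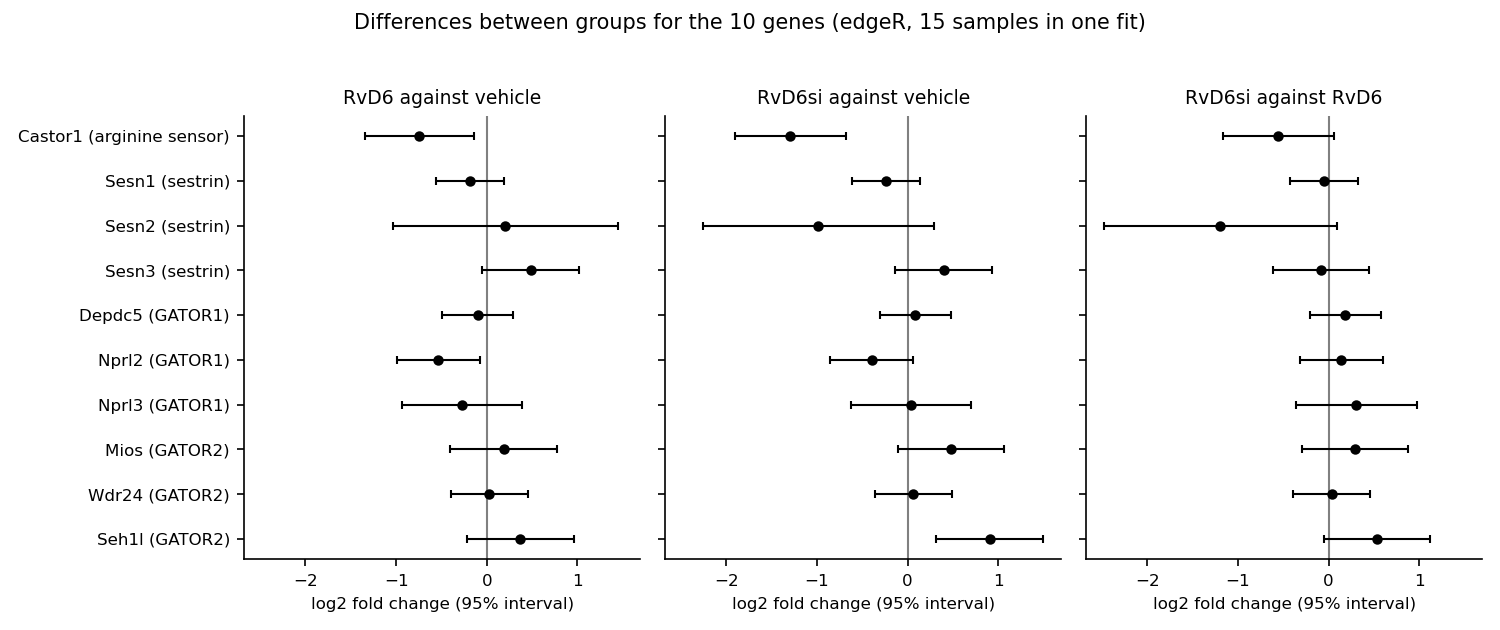
Log2 fold changes of the 10 genes with 95% intervals for RvD6 against vehicle, RvD6si against vehicle and RvD6si against RvD6, from edgeR with all 15 samples in the fit. Castor1 was chosen on RvD6si against vehicle, and RvD6 against vehicle shares the vehicle samples. Its intervals in the first 2 panels are therefore a description. In the last panel, which shares the RvD6si samples, its interval reaches 0.06.

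Across the rest of the pathway, 64 of 67 listed genes were tested, and edgeR called 0 of them in each of the 3 comparisons. At an unadjusted p below 0.05 it counted 5 higher and 5 lower for RvD6si against vehicle, 3 higher and 5 lower for RvD6 against vehicle, and 2 higher and 0 lower for RvD6si against RvD6. Of all genes tested, 8.69% were higher and 7.30% lower by this measure for RvD6si against vehicle, 7.63% and 5.99% for RvD6 against vehicle, and 4.18% and 4.64% for RvD6si against RvD6, so the counts of the first 2 comparisons were near the background. DESeq2 called 1 higher and 1 lower in each comparison with vehicle, against 8.13% of all genes for RvD6si and 1.92% for RvD6, and 0 between the lipids, against 0.936%. The medians of the 64 log2 fold changes were 0.01, -0.04 and 0.06.

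The genes that DESeq2 called belong to the amino acid starvation response and to the p53 targets. Ddit3, the transcription factor CHOP that ATF4 induces, was at 29.0 to 42.8 CPM in vehicle, 18.1 to 24.5 CPM in RvD6 and 16.6 to 25.8 CPM in RvD6si samples, so the highest RvD6 and RvD6si samples were still under the lowest vehicle sample. That separation downward was shared by 2.46% of all genes for RvD6si and by 1.62% for RvD6. Its log2 fold change was -0.67 (SE 0.19) for RvD6si (adjusted p = 0.0913 by edgeR and 0.0102 by DESeq2) and -0.60 (SE 0.19) for RvD6 (adjusted p = 0.191 by edgeR and 0.0640 by DESeq2).

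Asns, asparagine synthetase and another ATF4 target, was at 295 to 354 CPM in vehicle, 166 to 263 CPM in RvD6 and 194 to 336 CPM in RvD6si samples. RvD6 lay wholly below vehicle, as did 1.62% of all genes, with a log2 fold change of -0.61 (SE 0.16; adjusted p = 0.142 by edgeR and 0.0283 by DESeq2). RvD6si overlapped vehicle, at -0.26 (SE 0.16; adjusted p = 0.455 by edgeR and 0.352 by DESeq2). The list of ATF4 and its targets had 8 of 10 tested genes on the negative side in each comparison with vehicle, with a median of -0.47 for RvD6 and -0.24 for RvD6si. These 2 comparisons share the vehicle samples. The neuron markers had medians of -0.39 and -0.09 in the same comparisons, and their part in the ATF4 values was not tested.

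Ccng1, cyclin G1 and a p53 target, was higher in all samples of both lipid groups than in any vehicle sample, a separation upward shared by 2.45% of all genes for RvD6si and by 2.15% for RvD6. It was at 36.4 to 42.9 CPM in vehicle, 43.6 to 157 CPM in RvD6 and 49.2 to 96.1 CPM in RvD6si samples. Its log2 fold change was 0.97 (SE 0.29; adjusted p = 0.177 by edgeR and 0.0455 by DESeq2) for RvD6 and 0.85 (SE 0.29; adjusted p = 0.146 by edgeR and 0.0452 by DESeq2) for RvD6si. The highest value, 157 CPM, came from RvD6 replicate 9, the library with the most muscle marker reads. Of the other 6 p53 targets tested, Trp53inp1 had the largest value, 0.86 for RvD6 (edgeR, adjusted p = 0.224), and the list had a median of 0.06 for RvD6 and 0.09 for RvD6si.

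Among the parts of the pathway next to the sensors, no gene was called by edgeR, nor by DESeq2 where it gave an adjusted p. For RvD6si against vehicle DESeq2 gave none for some of these genes, Rragb and Fnip2 among them. Of the 13 genes of the Rags, the Ragulator scaffold and the folliculin complex, Lamtor5 had a log2 fold change of -0.42 (SE 0.15) for RvD6si against vehicle (edgeR, adjusted p = 0.165). Rragb, which encodes RagB, had -1.29 (SE 0.53) at 0.660 to 5.38 CPM against 5.57 to 11.9 CPM in vehicle (edgeR, adjusted p = 0.231). Its RvD6si samples lay wholly below vehicle, as did those of 2.46% of all genes. Fnip2, a partner of folliculin, had 1.97 (SE 0.84; edgeR, adjusted p = 0.257) for RvD6si against vehicle. For RvD6 against vehicle it had 1.67 (SE 0.84; edgeR, adjusted p = 0.398), with 0 reads in vehicle replicate 5.

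The 5 genes of the TSC complex and Rheb, the GTPase that switches mTORC1 on, had medians of -0.13 for RvD6si and -0.20 for RvD6 against the same vehicle samples, beside 0.02 over all genes in each comparison, and none of the 5 was called. Rheb itself was at -0.26 (SE 0.12) for RvD6si (edgeR, adjusted p = 0.310). Of the 12 genes of mTORC1 and its substrates, Akt1s1, the mTORC1 inhibitor PRAS40, was at 0.62 (SE 0.29) for RvD6si against vehicle (edgeR, adjusted p = 0.310). Rptor, which encodes raptor, was higher in every RvD6si than in every RvD6 sample, as were 0.712% of all genes, with a log2 fold change of 0.39 (SE 0.18; edgeR, adjusted p = 0.542).

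Of the 8 other sensor, GATOR and KICSTOR genes, Itfg2, a subunit of the KICSTOR scaffold, was at 0.72 (SE 0.33) for RvD6 against vehicle (edgeR, adjusted p = 0.348), and Sec13, a subunit of GATOR2, at -0.31 (SE 0.15) (edgeR, adjusted p = 0.365). Among 6 genes of amino acid uptake and leucine charging, Slc38a2, a glutamine transporter, was at 0.42 (SE 0.18) for RvD6si (edgeR, adjusted p = 0.249). Slc3a2, the heavy chain of the leucine transporter, was at -0.35 (SE 0.15) for RvD6 (edgeR, adjusted p = 0.312). The 3 ubiquitin ligase genes listed for the pathway, Rnf167, Rnf152 and Klhl22, had log2 fold changes of at most 0.45 for RvD6 and 0.19 for RvD6si.

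**Figure D4:**
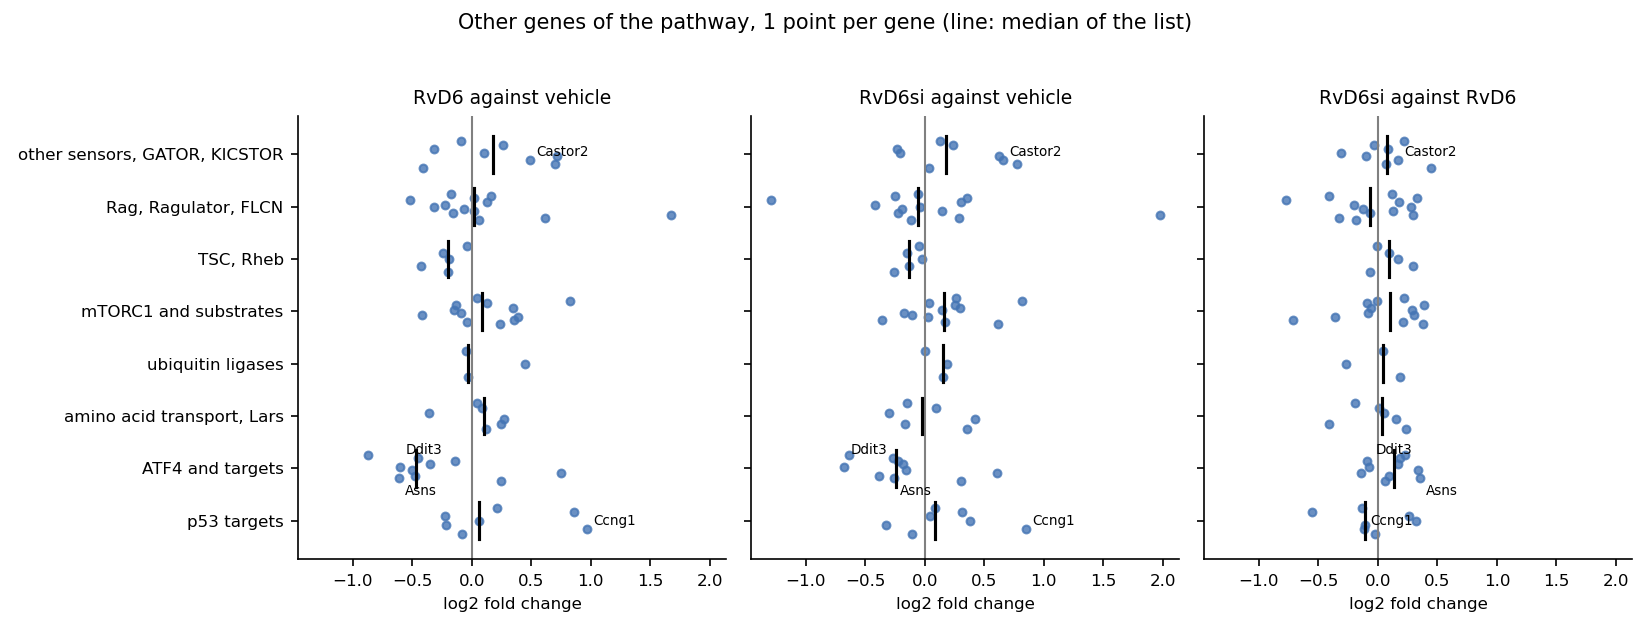
Log2 fold changes of the other genes of the pathway by list, 1 point per gene with the list median as a line, in the 3 comparisons. The ATF4 list lies mostly on the negative side against vehicle, with medians of -0.47 for RvD6 and -0.24 for RvD6si, and the other medians lie between -0.20 and 0.18.

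The genes whose log2 CPM followed that of Castor1 most closely over the 15 samples, among 16566 genes, were Oard1, a macrodomain hydrolase (Pearson r = 0.890), Mrto4-ps1 (0.887), Mrpl32, a subunit of the mitochondrial ribosome (0.872), Rpl6l (0.871) and Fibp (0.863). Mrto4-ps1 and Rpl6l are copies of other genes, so their counts are uncertain. Within groups, after the group means were removed, the 5 correlations fell to between 0.564 and 0.689, and all points share the libraries and their depth.

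None of the other 9 genes stood near the top of that order. Nprl2 ranked 1491 (r = 0.527) and Sesn2 1819 (0.490), and they were followed by Sesn1 at 5162, Wdr24 at 9962, Nprl3 at 11005, Depdc5 at 12500 and Mios at 14986. Sesn3 ranked 15414 (-0.555) and Seh1l 16399 (-0.745), near the opposite end. Within groups r was 0.620 for Sesn2 and -0.546 for Seh1l.

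**Figure D5:**
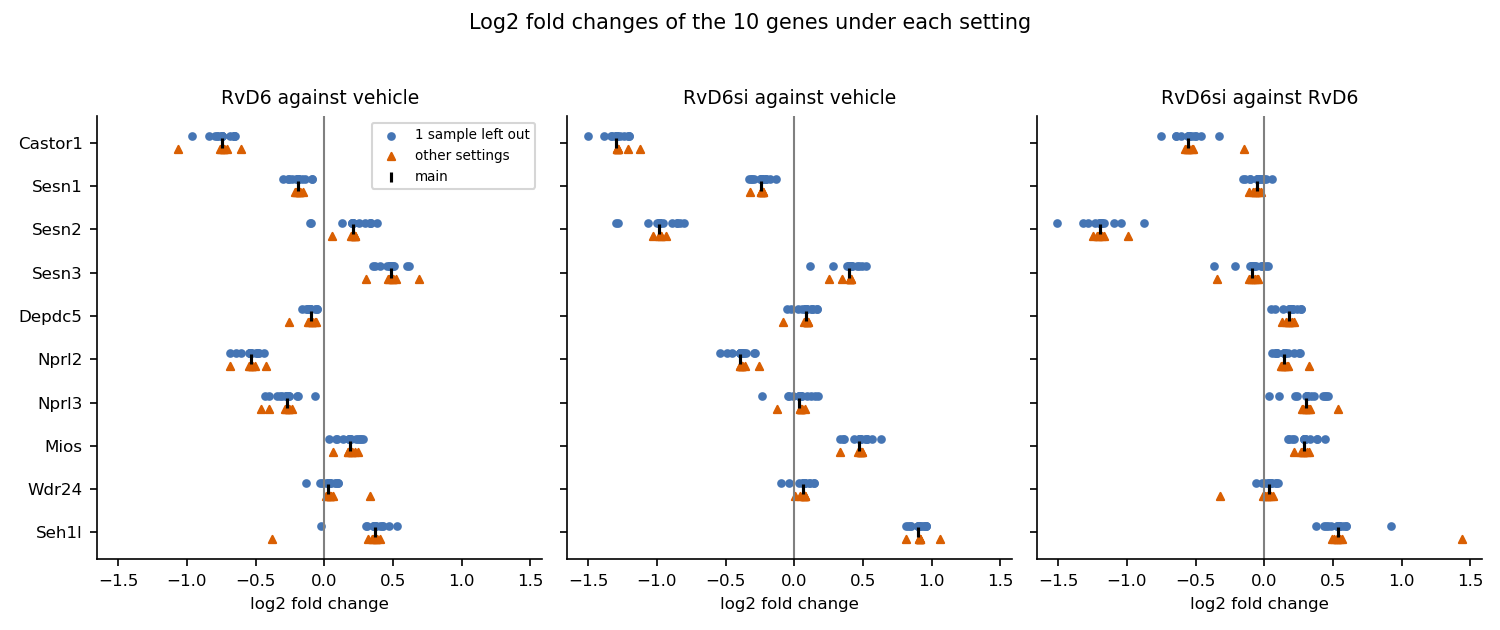
Log2 fold changes of the 10 genes in the 3 comparisons under the main setting (black tick), with 1 of the 15 samples removed at a time (blue points) and under 8 other settings of normalization, filter, tool or covariate (orange triangles). Castor1 ranges from -1.50 to -1.12 for RvD6si against vehicle, the contrast it was chosen on. There all RvD6si samples lie below all vehicle samples, so removing 1 sample could not turn its sign. Depdc5, Nprl3 and Wdr24 lie on both sides of 0 for RvD6si against vehicle.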

How the data were processed

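RNA from the TG of 15 mice, 5 per group, was primed at the poly(A) tail and turned into libraries by adapted Smart-seq2 and Nextera XT protocols. Alignment by the authors used Rsubread and GRCm38 (GENCODE release 22) and the authors deposited raw read counts per gene from featureCounts (1.5.0-p1 in the header of the table, Subread 1.6.5 in the submitters' processing notes), without normalization. Reads were counted without strand. Exonic lengths were taken from the same table. Each sample column carries its sample's name. GENCODE release 21, for GRCm38 as well, gave symbols for 99.7% of the gene identifiers.

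Counts were tested with the quasi-likelihood F test of edgeR 4.0.16 (R 4.3.3), on the 3 groups jointly (15 samples), after TMM normalization, the edgeR filter on low counts (minimum count 10, minimum total 15) and Benjamini-Hochberg adjustment over the 16567 genes tested, at a threshold of 0.05. DESeq2 1.42.0 was run on the same counts. Correlations used log2 CPM with a prior count of 2. Tables and motif counts were made with pandas in Python, figures with matplotlib.

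The members of the set, the pathway lists and the tests were chosen with earlier results of these data known. All members are named. Of the pathway lists, genes called by edgeR or DESeq2 were named, or else the 2 with the smallest p in a comparison, of which those with p below 0.05 and a few others are printed. Atf4 and Ddit3 are members of the ATF4 list, and some of its genes are also induced by other stresses. Neither the labels nor the methods name a batch. Nothing says that samples beyond their labels came from separate litters or days, so p-values measure the spread between these samples.

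Alternatives were DESeq2 on all samples, both tools on the pair of groups compared only, RLE normalization, no filter, at least 10 counts in every sample, removal of the lowess trend on gene length (span 0.3), a muscle score as covariate, and each sample left out. For shares and ratios, levels without length were tried. Totals of 4125962 to 9903396 counts per sample set the precision, with 2 to 51 reads per sample on Sesn2, the gene with the fewest. The steps were tested on simulated counts. Protein sequences were not used here.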

Additional observations from a re-analysis of the deposited data

Results flagged for a closer look

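In each group of 5 samples, a sample was singled out when its gap to the nearest other sample, divided by the range of the group, was above 0.71, the 95% critical value of Dixon's test. Chance singles out about 1 in 20 groups, and 42 groups were examined for the 10 genes, the sestrin shares and the ratio of Castor1 to Castor2, of which 6 were singled out. Sesn3 reached 107 CPM in RvD6si replicate 12, against 46.0 to 59.1 CPM in the other 4 samples. Depdc5 was at 33.7 CPM in RvD6 replicate 10, against 39.2 to 40.6 CPM in the others.

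The Sesn1 share of the summed sestrin level was 71.4% in RvD6 replicate 7, against 83.2 to 85.5% in the other RvD6 samples. The ratio of Castor1 to Castor2 stood apart upward in each group. It was 6.11 in vehicle replicate 5, against 2.96 to 3.75 in the others, 4.06 in RvD6 replicate 8, against 1.06 to 1.601, and 2.65 in RvD6si replicate 13, against 0.498 to 1.08. No gene of the set differed between RvD6si and RvD6 at an adjusted p below 0.05 by edgeR, and no data outside the main measurement were at hand.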

How the results depend on the processing

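No paired analysis was possible because the groups share no replicate number. Of 685 log2 fold changes of the 10 genes under the alternatives, 26 changed sign. None of them were those of Castor1, which was chosen for its difference between RvD6si and vehicle. For Castor1 in RvD6si against vehicle the value was -1.28 without a filter, -1.12 with the length trend removed, -1.21 with the muscle covariate and -1.50 to -1.20 with 1 sample left out. For RvD6si against vehicle, removal of the length trend turned Depdc5 to -0.081 and Nprl3 to -0.13, and leaving out 1 sample gave -0.053 to 0.17 for Depdc5, -0.24 to 0.17 for Nprl3 and -0.10 to 0.14 for Wdr24. For RvD6 against vehicle, the muscle covariate turned Seh1l to -0.38, and leaving out 1 sample gave -0.11 to 0.38 for Sesn2, -0.13 to 0.10 for Wdr24 and -0.022 to 0.53 for Seh1l. For RvD6si against RvD6, Wdr24 was -0.012 with the length trend removed and -0.33 with the muscle covariate, and leaving out 1 sample gave -0.15 to 0.058 for Sesn1, -0.37 to 0.025 for Sesn3 and -0.060 to 0.10 for Wdr24. The muscle covariate is largely confounded with the RvD6 group, so nothing is read from its values in comparisons with RvD6. The cause was not tested.

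For RvD6si against vehicle, 2 of the 10 genes were called by DESeq2 in both forms (on all samples and on the pair of groups) and by edgeR on the pair of groups, 0 without a filter, with the length trend removed and with the muscle covariate, and 0 to 2 when 1 sample was left out, with 0 in 12 of these 15 fits. For RvD6 against vehicle and RvD6si against RvD6 the count was 0 under every alternative run. The other pathway genes called were 2 for RvD6si against vehicle by DESeq2 in both forms, 0 to 1 with 1 sample left out, and 2 and 4 for RvD6 against vehicle by DESeq2 with all samples and with the 2 groups.

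Over all genes, RvD6si against vehicle gave 111 calls, and 920 and 979 by DESeq2 with all samples and with the 2 groups, 315 with at least 10 counts in every sample, 63 with the length trend removed and 0 to 229 with 1 sample left out, the 0 without RvD6si replicate 11. RvD6 against vehicle gave 0, and 369 and 664 by DESeq2, 38 by edgeR with the 2 groups, 56 without a filter, 24 with at least 10 counts, 2 with the muscle covariate and 0 to 51 with 1 sample left out. RvD6si against RvD6 gave 39, and 185 and 182 by DESeq2, 17 by edgeR with the 2 groups, 59 without a filter, 23 with at least 10 counts, 2 with the muscle covariate and 2 to 156 with 1 sample left out. Of the shares and ratios, 62 values moved by less than the spread between samples, and the 10 that moved by more were all levels without length. Depth limited Sesn2 most.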
